A study of Mus musculus with 12 samples.

Results

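Histone deacetylases (HDACs) remove acetyl groups from lysines of histones and of other proteins. The 10 HDAC genes described here, Hdac1 to Hdac9 and Hdac11, were taken from the gene table by symbol, out of 32867 genes listed, and all 10 passed the filter on low counts in each comparison. Class I enzymes (Hdac1, Hdac2, Hdac3 and Hdac8) are mostly nuclear, and the first 3 act as the catalytic subunits of corepressor complexes. Class IIa proteins (Hdac4, Hdac5, Hdac7 and Hdac9) bind MEF2 transcription factors and move between nucleus and cytoplasm under the control of kinases that phosphorylate them. Hdac6, of class IIb, is a cytoplasmic tubulin deacetylase, and Hdac11 is the sole member of class IV and removes long fatty acyl groups. Hdac10, also of class IIb, had 198 to 312 reads per sample but is not among the 10 genes. Statements on the family and on class shares below leave it out. High HDAC activity has been linked with photoreceptor death in retinal degeneration, and inhibitors of the family are studied as a treatment, while the data here give mRNA levels and say nothing of enzyme activity.

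RNA of whole retina was sequenced from 4 groups of mice with 3 samples each. Pde6b rd1 mice (rd1), homozygous carriers of a loss-of-function allele of the rod phosphodiesterase subunit Pde6b, were sampled at postnatal day 13. Pde6b rd10 mice (rd10), with a milder allele of the same gene, were sampled at day 23, and Prph rd2 mice (rd2), which carry an insertion in Prph2, the gene of a structural protein of the outer segment, at day 29. According to the labels each of these days is the peak of photoreceptor death of its model, so genotype and age cannot be told apart between models. The wild-type C3H group held 1 sample at each of days 13, 23 and 29. Age therefore also differs in part between each model and the C3H group. By the study's methods C3H, rd1 and rd2 mice shared the C3H background and rd10 mice were C57Bl6/J, whereas the label of rd2 names C57BL6/J. Animals were used irrespective of sex, and nothing in the sources used here says how many retinas went into a sample, so p-values measure the spread between these samples. In bulk RNA of a degenerating retina, fewer cells of a type and less RNA per cell cannot be told apart.

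Sequencing depth, as the sum of reads assigned to genes, ran from 17049495 to 24755890 over the 12 samples. Pde6b fell to 4937 to 6253 reads in rd1, against 24335 to 29129 in C3H, and Prph2 had 30656 to 34634 reads in rd2, against 52768 to 65756 in C3H. The summed FPKM (fragments scaled by transcript length and by library total) of 8 rod markers was 5222 to 5414 in C3H, 2706 to 2774 in rd1, 4596 to 4857 in rd10 and 3493 to 3743 in rd2. Of these 8 markers, 7 were lower and 1 was higher in rd1, 6 were lower in rd10 and 8 in rd2. Müller glia markers summed to 748 to 765 in C3H and to 381 to 387 in rd1, with 4 of 6 lower. Microglia markers summed to 125 to 132 in rd10, against 32.4 to 33.8 in C3H, with 7 of 8 higher, and to between 29.6 and 32.5 in the rd1 and rd2 samples. No marker of these 3 lists was at 0 in any sample. The groups also differed in sex-linked transcripts: Xist had 8 to 10 reads in C3H and 64914 to 83716 in rd1, with 37187 to 47452 in rd2 and 13428 to 18861 in rd10. The Y-linked gene Ddx3y had 0 reads in each rd1 sample and 1481 to 2005 in C3H, and Uty, Kdm5d and Eif2s3y were also at 0 in rd1. Ddx3y had 757 to 907 reads in rd2 and 1056 to 1696 in rd10. Sex and genotype therefore cannot be told apart between any model and C3H, nor between the models. Each rd2 and rd10 sample held both Xist and Y-linked reads, a mix that RNA of a single male or female would not give. The study calls the samples of a group biological replicates, but whether they came from separate animals or pools is not stated. The p-values may therefore not measure the spread between animals.

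The genes lie apart in the genome (GRCm38). Hdac2 (chr10:36974544-37001889) and Hdac11 (chr6:91156665-91174692) are on the plus strand. On the minus strand are Hdac1, whose position is given with its pseudogene, Hdac4 (chr1:91928779-92195699), Hdac5 (chr11:102194432-102230166), Hdac7 (chr15:97792664-97844502) and Hdac9 (chr12:34047580-34917095). The X chromosome carries Hdac6 (chrX:7930120-7947889) and Hdac8 (chrX:102284639-102505359), both also on the minus strand.

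All 10 genes were expressed in the C3H retina, and their levels spanned more than an order of magnitude. Mean FPKM in C3H was 22.4 for Hdac2, 20.1 for Hdac11 and 18.3 for Hdac5. A middle set followed, with 12.1 for Hdac3, 10.7 for Hdac6, 9.82 for Hdac1 and 6.83 for Hdac9. Hdac4 reached 5.32, Hdac7 3.08 and Hdac8 1.61. Among the 14081 genes with a mean of at least 1 FPKM in C3H, whose median was 6.56, Hdac2 stood at percentile 86.2 and Hdac8 at percentile 10.8. The reads behind these values ranged from 137 for Hdac8 in its lowest sample to 4398 for Hdac5 in its highest. Over the single C3H samples of days 13, 23 and 29, Hdac11 had 18.5, 19.6 and 22.2 FPKM and Hdac5 had 17.2, 18.3 and 19.5 FPKM, while Hdac7 stayed between 3.05 and 3.09. With 1 sample per day, the C3H values by age have no replicate check. Transcripts of Hdac11, Hdac5 and Hdac7 have 57.4%, 59.8% and 60.2% GC. By the study's sequencing summary the GC content of the C3H libraries rose in the same order of samples, and its part in these values was not tested.

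**Figure D1:**
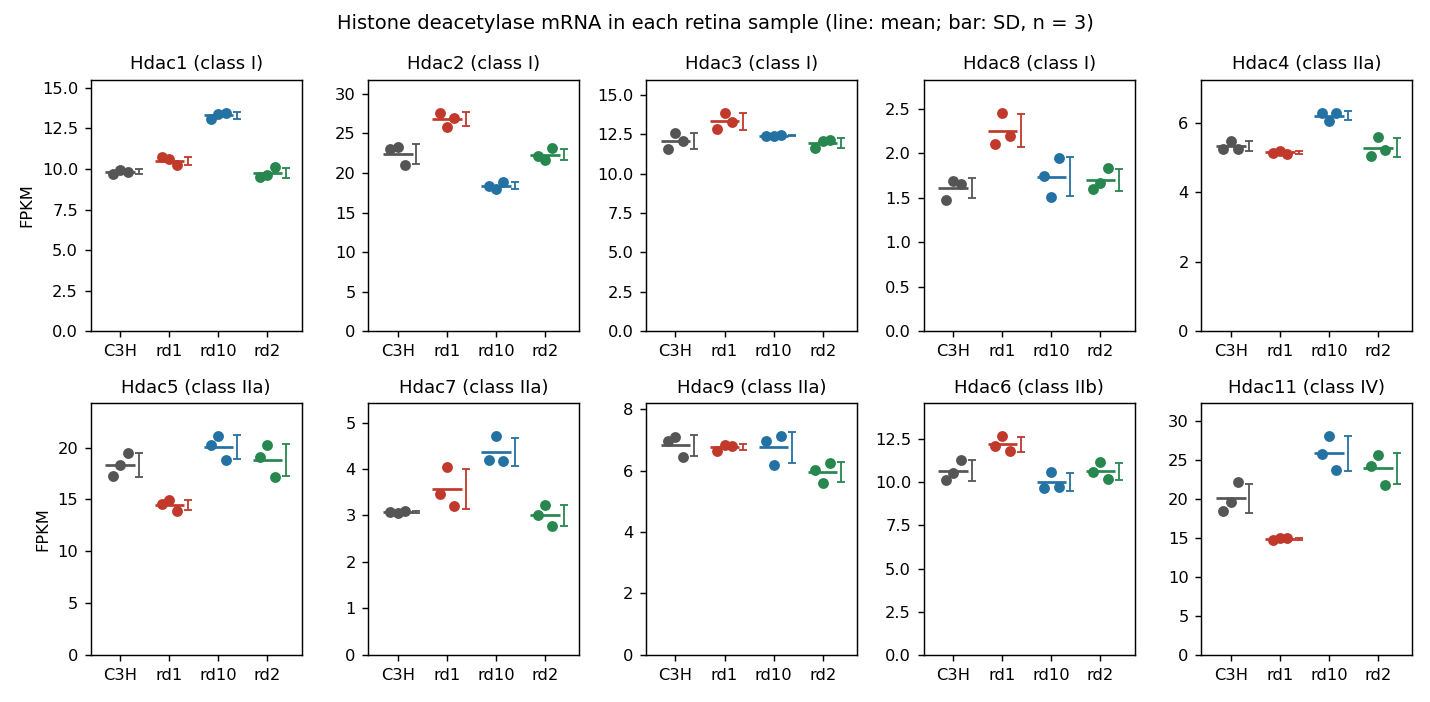
FPKM of the 10 HDAC genes in each of the 12 retina samples, by group on the horizontal axis, with the mean as a line and the SD as a bar (n = 3). The 3 rd1 samples lie below all C3H samples for Hdac5 and Hdac11, and the 3 rd10 samples lie above them for Hdac1, Hdac4, Hdac7 and Hdac11 and below them for Hdac2.

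Changes were moderate and differed between the models. In rd1, Hdac2 and Hdac8 rose and Hdac4, Hdac5 and Hdac11 fell. In rd10, Hdac1, Hdac4, Hdac7 and Hdac11 rose and Hdac2 and Hdac6 fell. In rd2, Hdac9 fell and no other HDAC gene passed the test. A gene passed when its Benjamini-Hochberg adjusted p in edgeR's quasi-likelihood test on the counts, taken over all genes, was under 0.05. In rd1 2 of 10 HDAC genes were higher and 3 lower, where 21.9% of the 18310 genes tested were higher and 21.3% lower. In rd10 4 of 10 were higher and 2 lower, where the background was 27.7% higher and 26.3% lower. In rd2 1 of 10 passed, and it was lower, beside 4.53% of all genes higher and 5.17% lower. Each of these counts is close to what the share among all genes would give for 10 genes.

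None of the 10 passed the study's own threshold of an unadjusted p under 0.05 with at least a 1.5-fold change, in any model against C3H by edgeR, although 7 in rd1, 6 in rd10 and 2 in rd2 had an unadjusted p under 0.05. Under that rule 8.98% of all genes were higher and 6.03% lower in rd1. In rd10 the shares were 15.9% and 8.08%, and in rd2 2.68% and 1.89%. The median size of the log2 fold change over the 10 genes was 0.130 in rd1, 0.158 in rd10 and 0.0453 in rd2, beside medians of 0.195, 0.265 and 0.126 over all genes tested. Over every alternative processing tried, the estimate farthest from 0 against C3H was that of Hdac11 in rd1, at -0.57, which is also short of 1.5-fold.

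**Figure D2:**
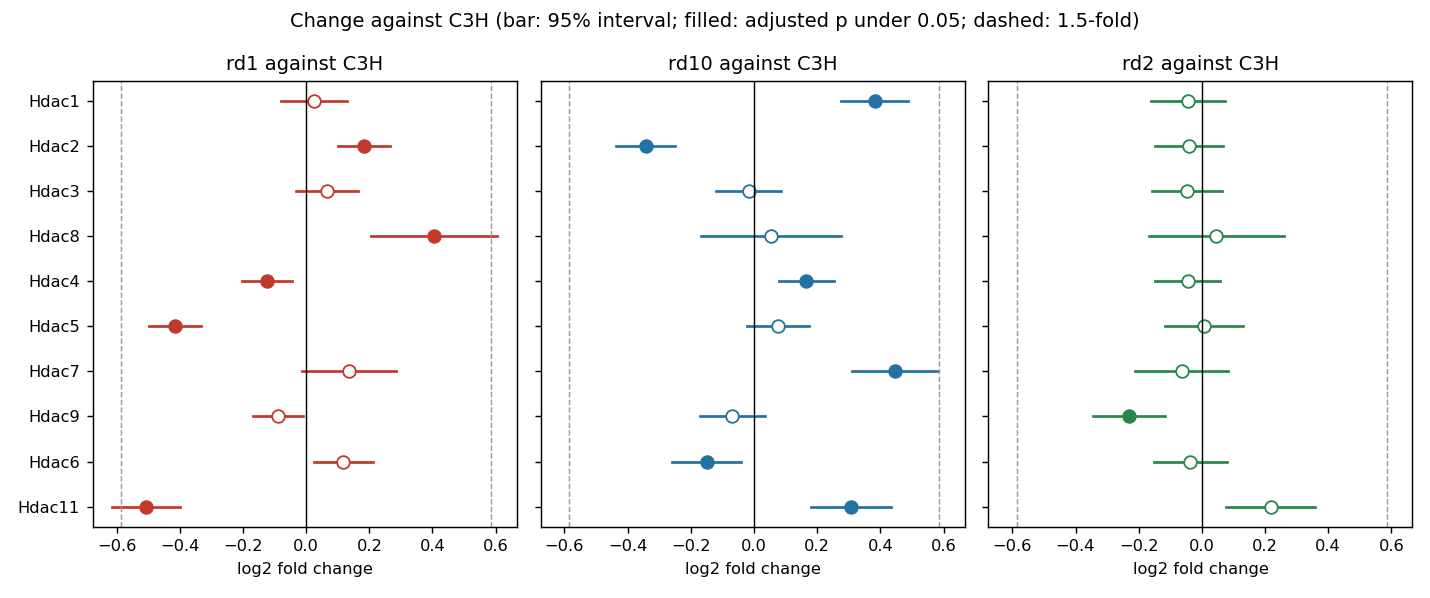
log2 fold change of each HDAC gene against C3H in rd1, rd10 and rd2, with 95% intervals as bars, filled points for an adjusted p under 0.05 and dashed lines at 1.5-fold. Hdac11 is lowest in rd1, at -0.51, and higher in rd10, at 0.31, and all 30 points lie inside the dashed lines.

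Among class I genes, Hdac2, a catalytic subunit shared by the Sin3, NuRD and CoREST complexes, moved in opposite directions in the Pde6b models. It measured 23.0, 23.3 and 20.99 FPKM in C3H, 27.6, 25.9 and 27.0 in rd1, 18.3, 18.0 and 18.9 in rd10 and 22.1, 21.7 and 23.1 in rd2. The rd1 samples were thus all above C3H and the rd10 samples all below, whereas rd2 overlapped C3H. Hdac2 was 1.14-fold higher in rd1 (log2 fold change 0.18, SE 0.0422, adjusted p = 0.000995) and 1.27-fold lower in rd10 (-0.34, SE 0.0477, adjusted p = 3.69e-06). In rd2 its change was -0.04 (95% interval -0.15 to 0.07, adjusted p = 0.716). The rise in rd1 is small. It was not called against the single C3H sample of day 13 (0.15, adjusted p = 0.0699) or with limma on log2(FPKM + 0.1) (0.26, adjusted p = 0.0605), and with offsets for the GC content of each gene it was 0.09 (adjusted p = 0.0214). Hdac2 has the lowest GC content of the 10, 41.9% of its longest transcript beside a median of 48.3% over all genes. The fall in rd10 was -0.40 (adjusted p = 0.000204) against the day 23 C3H sample alone.

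Hdac8, a class I enzyme that works outside the large complexes and deacetylates cohesin, was the least abundant of the 10. It measured 1.48, 1.69 and 1.66 FPKM in C3H and 2.11, 2.46 and 2.199 in rd1, with no overlap. Its rise in rd1 was 1.32-fold (log2 0.40, SE 0.103, adjusted p = 0.00247), and against the day 13 C3H sample alone it was 0.53 (adjusted p = 0.0147). Values in rd10 (1.74, 1.51 and 1.95) and rd2 (1.60, 1.67 and 1.84) overlapped C3H and did not pass. Hdac8 and Hdac6 are the X-linked members of the family. The part of the sex-linked differences between the models and C3H in their values was not tested.

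Hdac3, the catalytic subunit of the NCoR and SMRT complexes, passed in no comparison. It measured 11.6 to 12.6 FPKM in C3H, 12.8 to 13.9 in rd1, 12.4 in each rd10 sample and 11.6 to 12.2 in rd2. Its largest change against C3H was 0.06 in rd1 (95% interval -0.03 to 0.16, adjusted p = 0.318), although the rd1 values did not overlap C3H. FPKM divides by the library total, and the TMM factors (trimmed mean of M values) that scale the test place rd1 lower by 0.07 on the log2 scale relative to C3H, so narrow gaps in FPKM need not pass. With library totals in place of TMM, Hdac3 did pass in rd1 (0.14, adjusted p = 0.0261). Over the 4 groups Hdac3 had the smallest F statistic of the family (adjusted p = 0.428), above only 9.8% of the 19616 genes.

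Hdac1, the close paralog of Hdac2, rose in rd10 as counted, but a near-identical pseudogene moved the other way. FPKM of Hdac1 was 9.67, 9.96 and 9.85 in C3H, 13.1, 13.4 and 13.5 in rd10, 10.7, 10.6 and 10.2 in rd1 and 9.53, 9.63 and 10.1 in rd2. The rd10 values stood apart from all others, with a 1.30-fold difference from C3H (log2 0.38, SE 0.0547, adjusted p = 5.4e-06), and the changes in rd1 (0.03, adjusted p = 0.739) and rd2 (-0.04, adjusted p = 0.727) did not pass. The processed pseudogene Gm10093 (GRCm38 chr17:78491582-78493025, plus strand, 1444 bp) copies the coding sequence of Hdac1 (gene at chr4:129516104-129542713, minus strand, 14 exons) with 99.4% identity. The 9 mismatches and no gaps leave stretches of up to 450 bases without a difference. Counted from base 1 of the 2038-base Hdac1 transcript, with the base of Hdac1 first, the substitutions are G426A in exon 4, C492T, T525A, A544G, C549T, C556T and T566C in exon 5, T803C in exon 7 and C1254A in exon 11. The 100 bases that hold the 6 of exon 5 are shown because, within the copied stretch (bases 85 to 1528), a read differs between gene and copy only where it covers such a position. Reads from the rest of the transcript have no counterpart in Gm10093. Capitals mark the differing bases; the Hdac1 stretch (bases 490 to 589, within chr4:129522494-129523051) spans the exon 5 to exon 6 junction, and the copy is chr17:78491987-78492086.
Hdac1: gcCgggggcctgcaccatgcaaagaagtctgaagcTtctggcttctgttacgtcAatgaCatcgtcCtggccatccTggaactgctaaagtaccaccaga
Gm10093: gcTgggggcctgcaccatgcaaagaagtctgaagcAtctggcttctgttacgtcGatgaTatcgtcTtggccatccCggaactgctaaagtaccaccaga

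Gm10093 had 122, 186 and 120 reads in C3H, 155, 146 and 133 in rd1 and 175, 155 and 138 in rd2, but 15, 9 and 6 in rd10. A more distant Hdac1 pseudogene, Gm4864 (94.6% identity), had 36 to 63 reads in the C3H, rd1 and rd2 samples and 0 in each rd10 sample. Hdac1 itself had 661, 825 and 672 reads in C3H and 1114, 863 and 929 in rd10. Of the reads on Hdac1 and Gm10093 together, the pseudogene took 14.1% to 19.0% in the 9 samples of the C3H, rd1 and rd2 groups and 0.642% to 1.33% in rd10. Gm10093 fell by 3.86 on the log2 scale in rd10 against C3H (SE 0.225, adjusted p = 6.84e-12). With its reads added to Hdac1, an alternative chosen after these values were seen, the sum measured 39.4, 42.1 and 40.0 CPM (counts scaled to a common library total) in C3H and 45.6, 46.6 and 46.7 in rd10. The change was then 0.14 (SE 0.054, adjusted p = 0.0382), or 1.10-fold, in place of 0.38. The rd10 group is the one that the study's methods place on another background, so background and genotype cannot be told apart in these values.

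**Figure D3:**
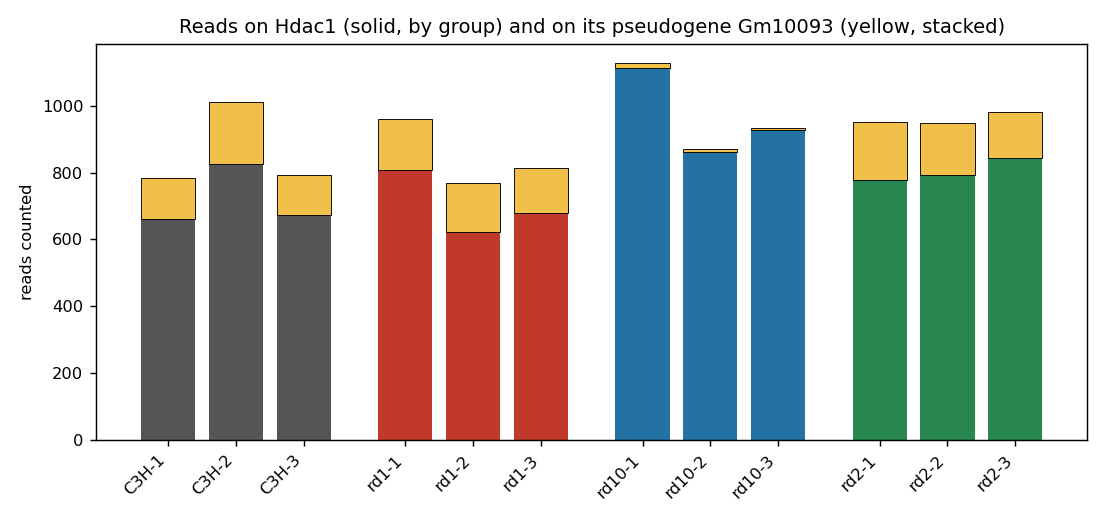
Reads counted on Hdac1 (coloured by group) and, stacked on top in yellow, on its pseudogene Gm10093, in each of the 12 samples. The yellow part is 120 to 186 reads in C3H, rd1 and rd2 and 6 to 15 reads in rd10.

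Of the class IIa genes, Hdac5 is the most abundant, and its protein represses MEF2 targets until kinases drive it out of the nucleus. It measured 17.2, 18.3 and 19.5 FPKM in C3H and 14.5, 14.95 and 13.9 in rd1. All rd1 samples were below all C3H samples, a 1.33-fold fall (log2 -0.41, SE 0.0423, adjusted p = 2.14e-08). The fall was -0.33 against the day 13 C3H sample alone (adjusted p = 9.07e-05) and -0.30 with GC content offsets (adjusted p = 1.28e-09). In rd10 Hdac5 measured 20.2, 21.1 and 18.8, a change of 0.08 that did not pass (adjusted p = 0.214). It passed without rd10 replicate 3 (0.12, adjusted p = 0.029), with GC content offsets (0.10, adjusted p = 0.00196) and with library totals (0.13, adjusted p = 0.0299). In rd2 the values of 19.1, 20.2 and 17.1 overlapped C3H (0.01, adjusted p = 0.969).

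Hdac7, known best for its role in endothelium and thymocytes, rose in rd10. It measured 3.08, 3.05 and 3.09 FPKM in C3H and 4.20, 4.71 and 4.17 in rd10, with no overlap. The rise was 1.36-fold (log2 0.45, SE 0.0696, adjusted p = 1.57e-05) and was 0.45 against the day 23 C3H sample alone (adjusted p = 0.00259). The summed microglia markers rose in the same samples, as given above, while endothelial markers summed to 56.3 to 61.4 in rd10 and 75.1 to 77.4 in C3H; the part of either in the Hdac7 value was not tested. In rd1, values of 3.46, 4.05 and 3.20 lay above C3H without passing (0.14, adjusted p = 0.154), but it passed without rd1 replicate 3 (0.20, adjusted p = 0.0357), with GC content offsets (0.24, adjusted p = 0.00383) and with library totals (0.21, adjusted p = 0.0283). In rd2 Hdac7 measured 3.01, 3.24 and 2.78 (-0.06, adjusted p = 0.667). Hdac7 overlaps Slc48a1, which lies on the opposite strand and had 1018 to 1925 reads; the libraries were directional, but the sources used here do not give the strand setting of the counting, so reads of the shared stretch cannot be assigned with certainty.

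Hdac4, which in the retina is known from work on photoreceptor survival, moved little. It measured 5.25, 5.48 and 5.23 FPKM in C3H, 5.13, 5.19 and 5.11 in rd1, 6.27, 6.05 and 6.29 in rd10 and 5.03, 5.57 and 5.22 in rd2. Its rise in rd10 was 1.12-fold (log2 0.17, SE 0.044, adjusted p = 0.0033) and was no longer called against the day 23 C3H sample alone (0.12, adjusted p = 0.229). Its fall in rd1 (-0.12, SE 0.04, adjusted p = 0.0148) was fragile. At a similar size, -0.11 to -0.12, it was not called by DESeq2 (adjusted p = 0.0514), without rd1 replicate 1 (0.0653), without C3H replicate 2 (0.0754) or against the day 13 C3H sample (0.203). The estimate itself shrank to -0.06 with GC content offsets (adjusted p = 0.156), -0.05 with library totals (0.326) and -0.04 with limma on log2(FPKM + 1) (0.414).

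Hdac9 was the sole HDAC gene called in rd2. It measured 6.95, 7.09 and 6.44 FPKM in C3H and 6.005, 5.60 and 6.25 in rd2, with no overlap, a 1.17-fold fall (log2 -0.23, SE 0.0582, adjusted p = 0.0225). This call was lost without rd2 replicate 1 (adjusted p = 0.0585), C3H replicate 1 (0.0963) or C3H replicate 2 (0.136) and with limma on log2(FPKM + 1) (0.164), and against the day 29 C3H sample alone the change was -0.15 (adjusted p = 0.615). Values in rd1 (6.65, 6.84 and 6.79) and rd10 (6.97, 6.18 and 7.12) overlapped C3H and did not pass, with changes of -0.09 (adjusted p = 0.08) and -0.07 (adjusted p = 0.277). In rd1 it passed without C3H replicate 3 (-0.13, adjusted p = 0.0124) and with GC content offsets (-0.12, adjusted p = 0.00405).

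Hdac6, the tubulin deacetylase, measured 10.1, 10.6 and 11.3 FPKM in C3H and 9.68, 10.6 and 9.71 in rd10. The groups overlapped, and the fall of 1.11-fold (log2 -0.15, SE 0.056, adjusted p = 0.0295) was lost by DESeq2 (adjusted p = 0.0588) and without rd10 replicate 1 (0.148), rd10 replicate 3 (0.0791), C3H replicate 2 (0.0659) or C3H replicate 3 (0.16). It shrank to -0.09 with library totals (adjusted p = 0.16) and -0.08 with limma on log2(FPKM + 1) (0.318). In rd1 the values of 12.1, 12.7 and 11.8 were all above C3H, and the change of 0.12 just missed the threshold (adjusted p = 0.0509). It passed without rd1 replicate 3 (adjusted p = 0.0316) or without C3H replicate 3 (0.0121). It also passed with GC content offsets (0.18, adjusted p = 0.000528) or library totals (0.19, adjusted p = 0.00201). Against the day 13 C3H sample alone the change in rd1 was 0.19. In rd2 Hdac6 measured 10.6, 11.1 and 10.2 (-0.04, adjusted p = 0.771).

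Hdac11 varied most of the family, with an F statistic over the 4 groups above that of 88.3% of all genes. It measured 18.5, 19.6 and 22.2 FPKM in C3H, 14.7, 14.9 and 15.04 in rd1, 25.8, 28.1 and 23.7 in rd10 and 24.3, 25.7 and 21.8 in rd2. The rd1 samples were the lowest of all 12, and the rd10 samples were all above C3H. Hdac11 was 1.42-fold lower in rd1 (log2 -0.51, SE 0.0547, adjusted p = 5.23e-08) and 1.24-fold higher in rd10 (0.31, SE 0.0646, adjusted p = 0.000428). Since the C3H level was lowest at day 13, the same-day comparison is smaller in rd1, at -0.39 (adjusted p = 7.71e-05), and 0.34 in rd10 (adjusted p = 0.00458). The rd10 call was lost with limma on log2(FPKM + 0.1) (adjusted p = 0.0585). With GC content offsets the rd1 change was -0.40 (adjusted p = 4.13e-08); Hdac11 transcripts have 57.4% GC and those of Hdac5 59.8%. In rd2 the change of 0.22 did not pass (95% interval 0.08 to 0.36, adjusted p = 0.074). It did without rd2 replicate 3 (0.28, adjusted p = 0.00916) or C3H replicate 3 (0.30, adjusted p = 0.036), with GC content offsets (0.28, adjusted p = 0.000469), with library totals (0.25, adjusted p = 0.0391) and without the filter on low counts (0.22, adjusted p = 0.00358). Against the day 29 C3H sample alone it was 0.07 (adjusted p = 0.857).

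Hdac11 and Hdac5 moved together over the samples, with a Pearson r of 0.961 between their log2 CPM over the 12 samples, and Hdac2 ran opposite to Hdac11 (r = -0.843) and to Hdac4 (r = -0.908). These correlations describe 12 samples that share 4 groups and their libraries. Transcripts of Hdac5 and Hdac11 are rich in GC (59.8% and 57.4%), and those of Hdac2 are the poorest of the family (41.9%). Hdac7, at 60.2%, had an r of 0.279 with Hdac11. By the study's sequencing summary the libraries also differed in GC content, and its part in these correlations was not tested. The promoters of Hdac11, Hdac5 and Hdac2 are printed to set the co-varying pair beside the gene that ran opposite. They are from RefSeq (GRCm38.p6, 250 bases before to 50 after the annotated start). Capitals mark GC boxes, the letters GGGCGG on either strand. Hdac11 lies at chr6:91156565-91156864 on the plus strand, Hdac5 at chr11:102230123-102230422 on the minus strand and Hdac2 at chr10:36974294-36974593 on the plus strand.
Hdac11: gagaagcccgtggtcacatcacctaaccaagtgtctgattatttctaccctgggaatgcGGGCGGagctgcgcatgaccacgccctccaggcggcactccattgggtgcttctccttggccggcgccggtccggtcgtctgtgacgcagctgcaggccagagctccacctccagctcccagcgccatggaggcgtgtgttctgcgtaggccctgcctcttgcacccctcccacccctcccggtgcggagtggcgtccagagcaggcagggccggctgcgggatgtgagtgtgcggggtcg
Hdac5: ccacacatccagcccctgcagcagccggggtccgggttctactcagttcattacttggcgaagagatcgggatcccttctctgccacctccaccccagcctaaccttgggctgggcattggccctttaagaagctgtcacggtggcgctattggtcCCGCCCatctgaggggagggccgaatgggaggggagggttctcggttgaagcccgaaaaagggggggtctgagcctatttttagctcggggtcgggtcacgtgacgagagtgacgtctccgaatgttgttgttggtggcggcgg
Hdac2: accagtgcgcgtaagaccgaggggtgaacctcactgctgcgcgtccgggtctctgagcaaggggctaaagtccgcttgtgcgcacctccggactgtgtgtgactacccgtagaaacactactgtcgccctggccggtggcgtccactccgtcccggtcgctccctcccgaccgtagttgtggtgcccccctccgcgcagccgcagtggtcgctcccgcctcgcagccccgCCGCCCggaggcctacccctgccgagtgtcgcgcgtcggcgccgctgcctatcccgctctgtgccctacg

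Each of these windows holds 1 GC box, as do 35.7% of all 32851 promoters in at least 1 copy, and they hold 22, 18 and 36 CpG dinucleotides, beside a median of 7. Hdac4 and Hdac6 each have 5 GC boxes. The CCAAT box (CCAAT on either strand, in 37.4% of promoters) is in the Hdac11 window once and in that of Hdac5 in 2 copies, and not in that of Hdac2. It is not particular to the co-varying pair: Hdac4, Hdac6 and Hdac8 also have 2 copies each, and the Hdac7 and Hdac9 windows have none. The E-box CACGTG, in 7.15% of promoters, is in the Hdac5 window once and in no other window of the family. In all, 12 promoters of 8 of the 10 genes were matched by symbol, and Hdac1 and Hdac3 had no entry. A match here is a match of letters and says nothing of binding.

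Tested directly against each other, the Pde6b models had a median size of the log2 fold change of 0.331 over the 10 genes, beside 0.332 over all genes tested. In rd10 against rd1, 5 of 10 genes were higher (Hdac1, Hdac4, Hdac5, Hdac7 and Hdac11) and 3 lower (Hdac2, Hdac6 and Hdac8), beside 30.2% and 27.0% of 19616 genes. The rise of Hdac1 there was 0.38 on the log2 scale as counted. Its lowest estimate was 0.13 over the alternatives, which include adding the pseudogene reads. Hdac11 was 1.79-fold higher in rd10 than in rd1 (log2 0.84, SE 0.0731, adjusted p = 5.12e-09), Hdac5 1.43-fold higher (0.52, SE 0.0602, adjusted p = 3.59e-07) and Hdac2 1.42-fold lower (-0.50, SE 0.0488, adjusted p = 2.68e-08). In rd1 against rd2, Hdac2 and Hdac8 were higher and Hdac5 and Hdac11 lower, beside 18.5% and 21.3% of all genes. Hdac11 was 1.68-fold lower in rd1 than in rd2 (-0.75, SE 0.0729, adjusted p = 7.22e-08) and Hdac5 1.36-fold lower (-0.44, SE 0.0601, adjusted p = 5.98e-06). The rise of Hdac8 in rd1 over rd2 (0.34, adjusted p = 0.0166) and its fall in rd10 against rd1 (-0.33, adjusted p = 0.0147) were lost without rd1 replicate 2 (adjusted p = 0.0793 and 0.0695), and also without rd2 replicate 1 (0.0644) and without rd10 replicate 2 (0.0812), respectively. In rd10 against rd2, Hdac1, Hdac4, Hdac7 and Hdac9 were higher and Hdac2 lower, beside 22.6% and 21.3% of all genes. Hdac7 was 1.43-fold higher there (0.51, SE 0.0793, adjusted p = 2.1e-05). Hdac1 was 1.34-fold higher as counted (0.43, adjusted p = 8.09e-07) and 0.19 on the log2 scale with the pseudogene reads added (adjusted p = 0.00462). The rise of Hdac9 there (0.16, adjusted p = 0.0222) was lost without rd10 replicate 1 (0.102), rd10 replicate 3 (0.112) or rd2 replicate 2 (0.104).

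Ordered by mean FPKM, Hdac11 and Hdac5 ran rd10, rd2, C3H, rd1, and Hdac2 ran rd1, C3H, rd2, rd10. Neighbours in these orders did not always differ. For Hdac11, rd10 and rd2 (25.9 and 23.9 FPKM) did not differ beyond their spread (adjusted p = 0.31), nor did rd2 and C3H in the fit of all 12 samples (adjusted p = 0.0501), while C3H and rd1 did (adjusted p = 9.97e-06). For Hdac5 the first 3 groups did not differ between neighbours (adjusted p = 0.349 and 0.975). For Hdac2, C3H and rd2 (22.4 and 22.3 FPKM) did not differ (adjusted p = 0.644), and both outer steps did (adjusted p = 0.0135 for rd1 over C3H and 3.91e-05 for rd2 over rd10). The order was the same on TMM-scaled CPM in 8 of the 10 genes.

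As a share of the summed FPKM of the 10 genes, which itself ranged from 107 to 122 per sample, the 4 class I genes took 39.7% to 42.8% in C3H and 47.4% to 48.6% in rd1, without overlap. They took 37.1% to 40.1% in rd10 and 38.7% to 42.7% in rd2. Hdac11 alone took 17.3% to 19.8% in C3H, 13.4% to 13.8% in rd1, 20.3% to 23.0% in rd10 and 19.7% to 22.1% in rd2. The class IIa share was 30.4% to 30.5% in C3H, 26.7% to 27.8% in rd1, 31.2% to 31.8% in rd10 and 28.4% to 29.7% in rd2. The shares are described without a test and add to 100, so a higher share of one gene lowers those of the others.

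**Figure D4:**
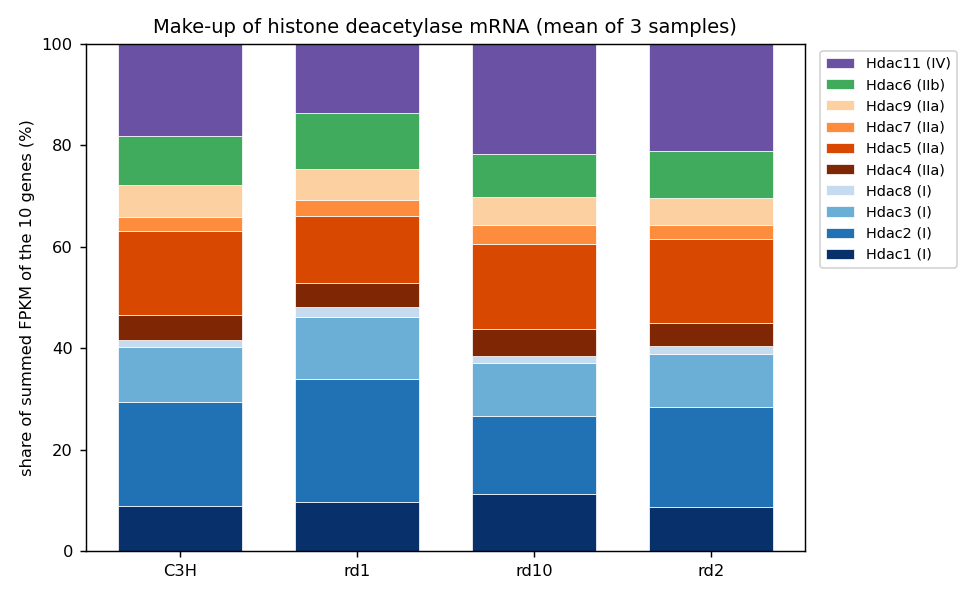
Mean share of each gene in the summed FPKM of the 10 HDAC genes, in percent, per group of 3 samples, with class I in blue, class IIa in orange, Hdac6 in green and Hdac11 in purple. Class I takes the largest share in rd1, 48.2% against 41.7% in C3H, and Hdac11 the smallest, 13.5% against 18.2%.

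Partners and opponents of HDACs were counted in the same fits, on 5 gene lists. In rd1, 11 of 30 corepressor complex genes were higher and 5 lower, and in rd10 7 were higher and 14 lower. The shares among all genes, given above for each direction, were 21.9% and 21.3% in rd1, 27.7% and 26.3% in rd10 and 4.53% and 5.17% in rd2, and they stand as background to each list. Rcor2, which encodes a CoREST subunit that pairs with HDAC1 and HDAC2, had 3.58 to 4.36 FPKM in C3H and 7.004 to 8.62 in rd1, a 1.92-fold rise (log2 0.94, SE 0.0883, adjusted p = 5.11e-09). Mier2, another scaffold of class I HDACs, fell 1.78-fold in rd10 (-0.83, SE 0.0538, adjusted p = 4e-11), from 18.1 to 19.7 FPKM in C3H to between 10.5 and 11.8. In rd2, 2 of these 30 genes passed, both lower.

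Of 22 class IIa partner genes, which cover MEF2 factors, 14-3-3 proteins and the kinases that control nuclear export, 3 were higher and 9 lower in rd1, 3 higher and 8 lower in rd10 and in rd2 4 passed, all lower. Beside the shares among all genes, the counts of lower genes were above the background in each model and those of higher genes below it, which is a description of the list. Mef2c, a transcription factor repressed by class IIa HDACs, passed in all 3 models. It measured 2.05, 2.09 and 1.91 FPKM in C3H, 0.761, 0.638 and 0.700 in rd1, 3.66, 3.32 and 3.97 in rd10 and 1.29, 1.12 and 1.31 in rd2. No 2 groups overlapped. It was 3.02-fold lower in rd1 (log2 -1.59, SE 0.0749, adjusted p = 2e-14), 1.74-fold higher in rd10 (0.80, SE 0.0642, adjusted p = 1.2e-09) and 1.66-fold lower in rd2 (-0.73, SE 0.0778, adjusted p = 2.66e-05). The rd2 estimate depended on the pseudocount, at -0.43 (adjusted p = 0.0162) with limma on log2(FPKM + 1) and -0.66 (adjusted p = 0.0529, no longer called) on log2(FPKM + 0.1). Camk2a, a calcium-dependent kinase, fell 1.72-fold in rd1 (-0.78, SE 0.0588, adjusted p = 1.1e-10). Mef2b fell 2.47-fold in rd10 (-1.30, SE 0.163, adjusted p = 9.28e-07), and the salt-inducible kinase Sik2, one of the kinases that phosphorylate class IIa HDACs, fell 1.66-fold in rd2 (-0.73, SE 0.0529, adjusted p = 5.21e-07). As given above, the rd10 samples also held more microglia marker RNA and the rd1 samples less rod and Müller glia marker RNA, and the part of these in the values was not tested.

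**Figure D5:**
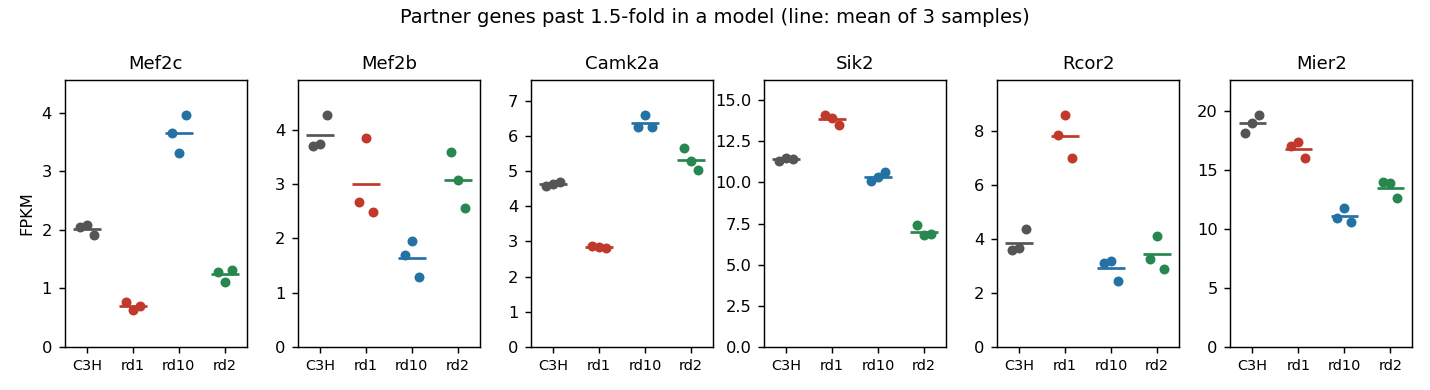
FPKM of the 6 partner genes that passed the test with at least a 1.5-fold change in a model, in each of the 12 samples, with the group mean as a line. Mef2c lies below C3H in rd1 and rd2 and above it in rd10.

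Of 7 sirtuin genes, the NAD-dependent deacetylases, 3 passed in rd1, all lower, and in rd10 3 were lower and 1 higher. In rd2 0 sirtuin genes passed by edgeR and 1 by DESeq2, with 1 at an unadjusted p under 0.05. Of 11 lysine acetyltransferase genes, which write the marks that HDACs remove, 3 passed in rd1, all higher, and in rd10 1 was higher and 4 were lower. In rd2 0 passed by edgeR and 0 by DESeq2, with 1 at an unadjusted p under 0.05 by edgeR. Of 7 bromodomain genes, readers of acetyl-lysine, 2 were higher in rd1, 1 was higher and 3 were lower in rd10 and 1 was lower in rd2. Together 43.2% of all genes passed in rd1 and 54.1% in rd10, so the totals of 3 of 7 and 4 of 7 sirtuin genes, 3 of 11 and 5 of 11 acetyltransferase genes and 2 of 7 and 4 of 7 bromodomain genes were near or below the background. No gene of these 3 lists passed both the test and 1.5-fold.

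Across the 12 samples, the genes whose log2 CPM followed Hdac11 most closely were Eml2 (Pearson r = 0.987), Rap1gap (0.986) and Rgs3 (0.985). For Hdac2 they were St6gal2 (0.986), Zfp354c (0.986) and Gulp1 (0.984), and for Hdac1 A930030B08Rik (0.993), Tlr7 (0.992) and Metap1d (0.992). Each is the best of 19615 genes compared over samples that share 4 groups, and no p is given. Hdac1 was taken as counted, without the reads of Gm10093, both here and in the F statistic that selected it.

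Circular RNAs from HDAC genes were sparse. Of 12510 circRNAs in the junction table, 13 lay in 4 HDAC genes, 9 of them in Hdac9, which ranked 524 of 3933 host genes by summed junction reads. Hdac9 circles had 11, 4 and 0 junction reads in C3H, 2, 6 and 2 in rd1, 13, 12 and 20 in rd10 and 2, 5 and 12 in rd2, among 9819 to 25009 junction reads per sample over all hosts. Relative to these totals the groups overlapped: rd10 had 0.52 to 0.956 Hdac9 reads per 1000 junction reads, while C3H replicate 1 had 0.638, rd1 replicate 2 had 0.611 and rd2 replicate 3 had 0.553. The counts are too low for a test here. The circle with most reads (mm10 chr12:34373878-34402867, minus strand, inside Hdac9) had 33 reads, of which 8 were in C3H replicate 1, 6 in rd2 replicate 3, 8 in rd10 replicate 1 and 11 in rd10 replicate 3, with 0 in the other samples. Linear Hdac9 RNA did not pass in rd10, as given above. Hdac8 circles had 9 reads in all, those of Hdac2 7 and those of Hdac4 4.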

How the data were processed

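Retinal RNA of 12 samples, 3 per group, was analysed from the tables the authors deposited. According to the study's methods, reads were filtered, aligned to GRCm38 (the submitters' processing notes name HISAT2) and counted per gene with HTSeq 0.11.2. The deposited gene table holds raw read counts and FPKM that the authors calculated from them. The deposited circular RNA table holds counts of back-splice junction reads (TopHat2 2.1.1, mm10) and TPM, which the authors scaled to a common total of junction reads and which were not used here.

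Counts were filtered (filterByExpr), scaled by TMM and tested with edgeR 4.0.16 (quasi-likelihood, R 4.3.3, Benjamini-Hochberg adjustment over all genes). Each model was fitted with C3H alone, and models were compared in a fit of all 12 samples. FPKM describes levels. DESeq2 1.42.0, limma 3.58.1 on log2(FPKM + 1) and log2(FPKM + 0.1), other scalings and leaving out each sample were alternatives. Adding pseudogene reads, GC content offsets, the adjusted p with 1.5-fold and the recounts of partner genes were chosen after seeing the data. On simulated counts, 74.5% of 1.5-fold changes were found in rd1 against C3H, 81.6% in rd10 and 74.5% in rd2. The changed genes were drawn at random from all levels, with a single spread for all genes. These rates therefore do not give the power for the smaller HDAC changes against C3H.

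The 10 genes and the gene lists were chosen with earlier results of these data known. All 10 were named. Partner genes were named where they had the smallest p, up to 3 per list and direction, among those with an adjusted p under 0.05 and at least 1.5-fold, and genes alike by Pearson r were given for the 3 HDAC genes with the largest F over the 4 groups. Coordinates follow the GRCm38 annotation, and copies of Hdac1 were found with BLAST 2.17.0+ (at least 90% identity over 200 bases).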

Additional observations from a re-analysis of the deposited data

Results flagged for a closer look

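The difference in Hdac11 between models was larger than the spread between samples in 2 direct tests by edgeR. Hdac11 was higher in rd10 than in rd1 by 0.84 on the log2 scale (SE 0.0731, adjusted p = 5.12e-09), and lower in rd1 than in rd2, at -0.75 (SE 0.0729, adjusted p = 7.22e-08). In each, all 3 samples of the higher model lay above all 3 of the lower one. The models were sampled at different ages and differed in sex-linked transcripts, so age, sex and genotype cannot be told apart in these differences.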

How the results depend on the processing

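Of the estimates for the 10 HDAC genes under alternatives, 939 kept direction and side of the threshold, 47 passed newly, 41 no longer passed and 23 changed sign; the cause was not tested. The 5 genes called in rd1 became 3 with limma on log2(FPKM + 0.1), and 4 to 7 when a sample was left out. The 6 in rd10 became 4 with limma on log2(FPKM + 0.1) or with the same-day C3H sample, 7 with GC content offsets, and 5 to 6 when a sample was left out. With a 1.5-fold minimum, by unadjusted or adjusted p, 0 were called in rd1, 0 in rd10 and 0 in rd2. The 1 in rd2 became 0 with limma at either pseudocount, with the replicate block or with the same-day C3H sample alone, and 2 with library totals, without the filter or with GC content offsets, and 0 to 2 when a sample was left out. The 8 in rd10 against rd1 became 1 with the 1.5-fold minimum (7 to 8 leaving out samples), and the 5 in rd10 against rd2 became 0 (4 to 6). The 4 in rd1 against rd2 became 7 with limma on log2(FPKM + 1) or GC offsets, 8 with upper-quartile factors or library totals, 1 with the 1.5-fold minimum, and 3 to 6 leaving out samples. Summed over the 3 comparisons with C3H, limma on log2(FPKM + 0.1) took corepressor calls from 39 to 18, class IIa partner calls from 27 to 14, acetyltransferase calls from 8 to 2, reader calls from 7 to 4 and sirtuin calls from 7 to 1. Sirtuin calls were 2 with log2(FPKM + 1), 3 with the same-day C3H sample and 4 (without C3H replicate 2) to 9 leaving out samples. With the same-day sample, corepressor calls were 24 and acetyltransferase calls 3.

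Sign changes were all in estimates that did not pass. Hdac3 in rd10 became 0.0372 and 0.0399 with limma, 0.0156 with upper-quartile factors and 0.0384 with library totals. With the same-day C3H sample, Hdac8 in rd10 became -0.0178, and in rd2 Hdac2 became 0.0527 and Hdac5 -0.0846. With GC offsets Hdac7 in rd2 became 0.0038. Hdac9 in rd10 against rd1 became -0.0023 and -0.0029 with limma, and Hdac8 in rd10 against rd2 became -0.0053 without the filter. When a sample was left out, Hdac3 in rd10 ranged from -0.051 to 0.0119, Hdac8 in rd10 from -0.027 to 0.1345, Hdac5 in rd2 from -0.0429 to 0.066, Hdac6 in rd2 from -0.0724 to 0.0097, Hdac8 in rd2 from -0.0188 to 0.0871 and Hdac8 in rd10 against rd2 from -0.0762 to 0.0942.

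The labels do not say that replicate numbers mark pairs, and not every same-numbered pair correlated over 0.1 (range -0.105 to 0.299, 7 of 18 pairs over 0.1), so the samples were not treated as paired. Among rd1, rd10 and rd2, however, 6 of 6 pairs of replicates 2 and 3 were over 0.1 (0.113 to 0.299). In all, 8 of 12 samples correlated best with their own number, which is a hint from the data of something shared. By the study's sequencing summary, library GC content was highest in replicate 2 and lowest in replicate 3 of each model. In C3H it was highest in replicate 3, and the part of GC content in these correlations was not tested. With the replicate block, Hdac6 in rd10 (adjusted p = 0.0537) and Hdac9 in rd2 (0.0612) were no longer called, and in rd1 against rd2 Hdac6 (0.0471) and Hdac7 (0.0474) were.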
